A study of Mus musculus with 52 samples.

Results

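Ttr, Otx2, Aqp1, Folr1, Clic6, Enpp2, Kl, Slc4a5, Sostdc1 and Rarres2 are genes known from the epithelium of the choroid plexus, and their levels were followed through every library of a study of epilepsy in C57BL/6 mice. The 10 genes were chosen by name, and all 10 were found in each of the 4 expression tables, which held 55487 genes for the first cohort of the KA-induced TLE model, 55487 for the CNO-induced epileptic model, 34042 for the second KA cohort and 53700 for cultured astrocytes. RNA was sequenced from 25 brain libraries and 27 libraries of primary astrocytes, in 17 groups. The first KA cohort had 3 untreated and 3 KA-treated brains, and the CNO set had 3 untreated and 3 CNO-treated brains. The second KA cohort had 3 untreated brains, 4 treated with KA, 3 with Apoe knocked out and KA, and 3 with A2aR knocked down and KA. Astrocytes made 9 groups of 3 libraries. Wild-type cells made 5 of them: untreated, given either of 2 fatty acids (oleic or palmitic), or given medium conditioned by normal or by Apoe knockout neurons. Apoe knockout cells made the other 4, lacking only the medium of knockout neurons. Titles of the libraries given neuronal medium carry the letters KA, and those of untreated knockout library 3 and knockout palmitic acid library 3 carry "mix", neither of which is explained. The sources used here do not give the brain region, age, doses, treatment times or means of the knockdown, nor do they say that libraries of a group came from separate animals or cultures. P-values therefore measure only the spread between these libraries, which may be technical.

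The choroid plexus is a fringe of vessels and cuboidal epithelium that hangs in the ventricles and secretes the cerebrospinal fluid. Its epithelium makes very large amounts of transthyretin, is specified and maintained by the homeobox factor Otx2, and moves water, ions and folate between blood and fluid. In dissected brain tissue its transcripts also depend on whether plexus was taken along, and fewer cells of a type and less RNA per cell cannot be told apart in bulk RNA.

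In the GENCODE M21 annotation of mm10 all 10 are protein-coding genes. Otx2 lies on chromosome 14 (48657677 to 48673819), Aqp1, Slc4a5 and Rarres2 on chromosome 6 (55336432 to 55348555, 83219828 to 83304945 and 48569696 to 48572789), and Folr1 on chromosome 7 (101858331 to 101870788). Clic6 lies on chromosome 16 (92485736 to 92541243), Enpp2 on chromosome 15 (54838901 to 54952892), Kl on chromosome 5 (150952607 to 150993817) and Sostdc1 on chromosome 12 (36314139 to 36318452), and the position of Ttr is given with its values. RefSeq promoter windows on GRCm38.p6 were at hand for 4 of the 10 genes: Otx2, Aqp1, Kl and Slc4a5. The 100 bases before the listed start are shown for the transport genes Aqp1 and Slc4a5 and for Kl, because these 3 have a single listed start and Aqp1 and Slc4a5 varied closely with Ttr across libraries. Capitals mark GGGCGG, the core of a GC box, or its complement CCGCCC. The windows are chr6:55336199-55336298 for Aqp1, chr5:150952507-150952606 for Kl and chr6:83237275-83237374 for Slc4a5, all on the plus strand. Only the Kl window ends directly before the GENCODE gene start given above. The Aqp1 window ends some way before that start, and the Slc4a5 window lies inside the gene's span.
Aqp1: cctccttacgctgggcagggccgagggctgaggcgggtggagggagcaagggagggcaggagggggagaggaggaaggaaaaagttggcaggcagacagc
Kl: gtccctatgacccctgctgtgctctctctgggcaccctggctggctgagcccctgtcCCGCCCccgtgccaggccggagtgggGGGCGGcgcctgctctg
Slc4a5: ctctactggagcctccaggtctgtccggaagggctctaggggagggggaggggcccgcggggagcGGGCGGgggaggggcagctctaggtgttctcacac
GGGCGG was found on either strand in 24.7% of all 32851 windows of this length, with 2 matches in Kl, 1 in Slc4a5 and 0 in Aqp1. The TATA sequence TATAAA, held by 5.56% of the windows, was not among the letters of these 3. The sequence TAATCC, which homeodomain factors of the Otx kind are known to bind, was searched on both strands of whole windows of 300 bases, 250 before to 50 after a start. It was in 1 of the 4 genes, 211 bases before the third listed start of Otx2 itself, against 8.14% of 27025 genes.

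Levels are in TPM, a share of each library's transcripts that allows for gene length. Libraries of the second KA cohort held 68760648 to 76643829 counts, while for the others, given as TPM alone, depth is unknown. The knocked-out gene Apoe was at 29.7 to 58.6 TPM in the Apoe knockout brains against 830 to 1467 TPM in the KA brains, and Adora2a, which encodes A2aR, was at 1.75 to 2.15 TPM in the knockdown brains against 1.32 to 2.90 TPM in the KA brains, so its level did not set the knockdown libraries apart. Untreated library 3 of the first KA cohort stood apart from its group, with 9.01% of its TPM from mitochondrial genes against 16.1% and 15.9%. In the second KA cohort, Xist was at 122 to 145 TPM in the untreated brains and at most at 0.31 TPM in the others, while the Y-linked Ddx3y was at most at 0.40 TPM and at least at 20.3 TPM, so that sex and KA cannot be told apart there.

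In the first KA cohort the choroid plexus genes were, in the fit, at higher levels in KA than in untreated brain, but none of the 10 passed limma's test. Of 10 members 0 passed at an adjusted p under 0.05, against 0.183% of all genes in either direction, and 7 of 10 had an unadjusted p under 0.05, against 13.5% of all genes. All 10 log2 differences were above 0, with a median of 1.39 against 0.25 over 15331 tested genes. In 7 of 10 every KA library was above every untreated library, which held for 22.7% of all tested genes. Scaling libraries by median ratios moved the median of all genes from 0.25 to 0.04 and that of the 10 genes to 1.22, with all 10 still above 0.

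Ttr (chromosome 18, 20665280 to 20674321), the carrier of thyroxine and retinol-binding protein in cerebrospinal fluid, was at 382, 1061 and 133 TPM in the untreated brains and at 2199.8, 1581 and 1454 TPM in the KA brains. All 3 KA libraries were above all 3 untreated libraries, among which the highest was 7.96 times the lowest. The means were 525 ± 480 and 1745 ± 399 TPM (SD, n = 3), a log2 difference of 2.18 ± 0.68 (SE, adjusted p = 0.228, limma). Otx2, the transcription factor of the plexus, was at 2.42, 2.92 and 0.64 TPM in untreated and 9.27, 13.75 and 8.98 TPM in KA brains. It had the smallest p of the 10, with a log2 difference of 2.03 ± 0.37 (SE, adjusted p = 0.0854, limma), and the groups did not overlap.

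Among the transport genes, Clic6, an intracellular chloride channel protein of secretory epithelia, was at 2.52, 6.79 and 0.31 TPM in untreated and 14.3, 13.2 and 9.39 TPM in KA brains, without overlap. Aqp1, the water channel of the apical membrane, was at 1.15, 1.80 and 0.27 TPM in untreated and 5.36, 3.12 and 3.61 TPM in KA brains, also without overlap. Slc4a5, a sodium bicarbonate cotransporter, was at 0.69, 2.35 and 0.11 TPM against 3.25, 2.42 and 2.13 TPM, and here untreated library 2 reached into the KA range. The log2 differences were 1.99 ± 0.61 for Clic6, 1.33 ± 0.34 for Aqp1 and 0.95 ± 0.40 for Slc4a5 (SE, limma), none past the threshold. Folr1, the folate receptor that loads folate into the fluid, was at 2.84, 12.09 and 1.31 TPM in untreated and 20.0, 14.3 and 15.7 TPM in KA brains. Untreated library 2 was close to the KA libraries for Folr1 as well, and the log2 difference was 1.84 ± 0.60 (SE, adjusted p = 0.251, limma).

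Of the secreted and signalling genes, Enpp2, which makes lysophosphatidic acid and is also a gene of oligodendrocytes, was at 203, 287 and 51.3 TPM in untreated and 461, 385 and 354 TPM in KA brains, without overlap. Sostdc1, a secreted antagonist of BMP and Wnt signals, was at 4.87, 8.07 and 2.62 TPM against 12.7, 9.22 and 10.2 TPM, again without overlap. Kl, the coreceptor of FGF23, was at 11.8, 17.95 and 2.61 TPM against 23.4, 17.0 and 18.2 TPM, and untreated library 2 lay among the KA libraries. Rarres2, the chemoattractant chemerin, was the 1 gene whose lowest library was not untreated library 3: it was at 12.4, 13.8 and 23.6 TPM in untreated and 31.8, 39.9 and 18.9 TPM in KA brains, which overlapped. The log2 differences of these 4 ran from 0.82 ± 0.35 for Rarres2 to 1.45 ± 0.59 for Enpp2 (SE, limma).

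**Figure D1:**
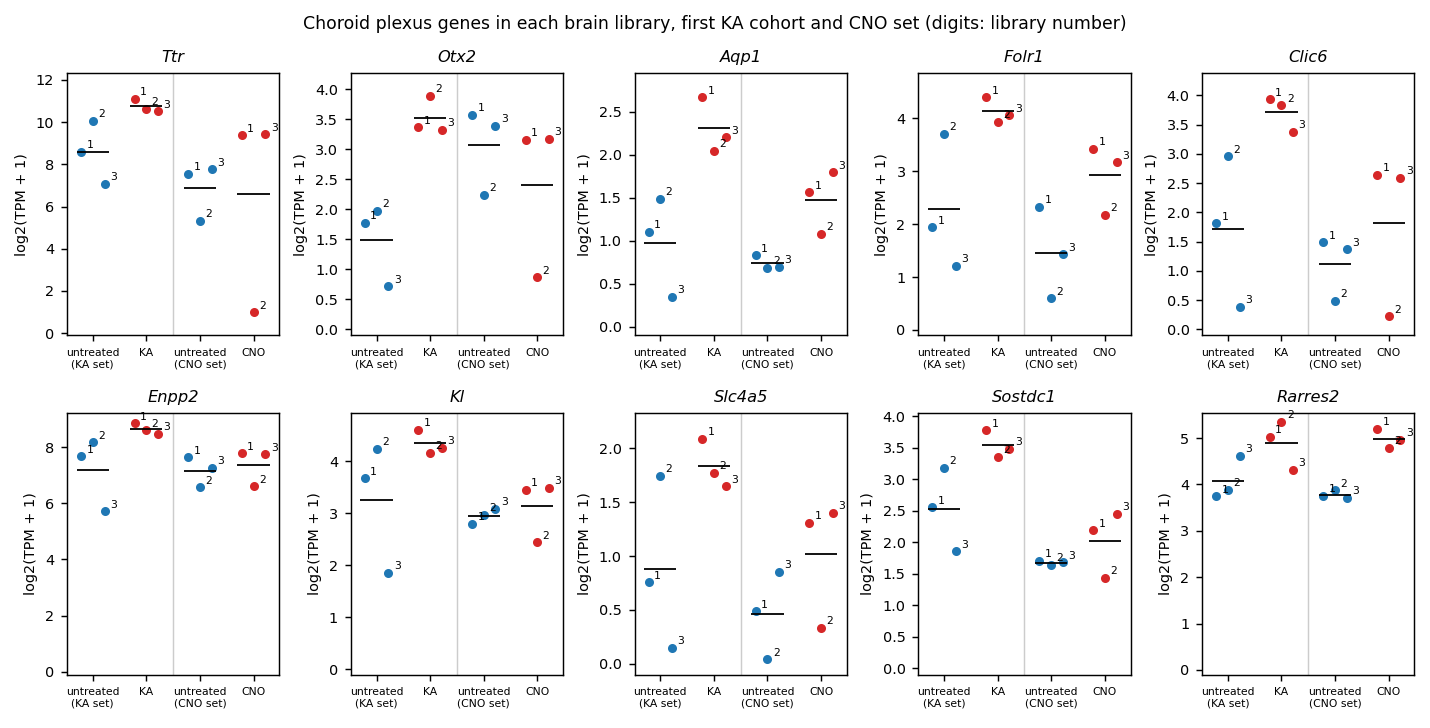
Level of each gene, as log2(TPM + 1), in every library of the first KA cohort and the CNO set (blue untreated, red treated, numbered points are libraries and bars are group means). The 3 KA libraries lie above the untreated ones for 7 of 10 genes, untreated library 3 is lowest for 9 of 10, and CNO library 2 lies far below the other CNO libraries for Ttr.

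KA library 1 was the highest of the 6 libraries for 8 of 10 genes, and untreated library 3 the lowest for 9 of 10. Left out of the fit, this untreated library took the median log2 difference of the 10 genes from 1.39 to 1.05, all 10 stayed above 0, and Otx2 passed limma's test (log2 1.65, adjusted p = 0.0392). Of 42 symbols listed for other genes of choroid plexus epithelium, among which Ecrg4 and 1500015O10Rik name the same gene, 39 were tested. All 39 were above 0, with a median of 1.11. Of these, 30 had an unadjusted p under 0.05 in limma's test, against 13.5% of all genes, and 0 were past the threshold. Those with the smallest p were Krt18, an epithelial keratin (1.60 ± 0.23, adjusted p = 0.0537), Wfdc2, a secreted protease inhibitor homologue (1.64 ± 0.29), Epn3 (1.17 ± 0.23) and Igfbp2, which binds insulin-like growth factors (1.37 ± 0.30; SE, limma). Markers of thalamus and habenula moved with the groups too: 7 of 8 were tested, all 7 were above 0 with a median of 0.95, and their summed level was 59.9 to 70.6 TPM in untreated and 177 to 218 TPM in KA brains. Tcf7l2, the thalamic transcription factor, passed the test at 2.55 ± 0.23 (SE, adjusted p = 0.0254, limma). The 12 microglial markers were all above 0 as well, with a median of 1.98 and 0 past the threshold, and so were all 11 tested leptomeningeal markers, the list summing to 85.9 to 109 TPM in untreated and 168 to 172 TPM in KA brains. The 10 astrocyte markers were all above 0, summing to 748 to 1510 TPM in untreated and 1943 to 3625 TPM in KA brains, as were the 10 endothelial markers, with a median of 0.53, and 10 of 11 ependymal markers. The part of these cells and regions in the differences of the choroid plexus genes was not tested.

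In the CNO set 9 of the 10 genes could be tested, since Slc4a5 reached 1 TPM in only 2 libraries. In the unpaired fit Rarres2 was the 1 gene that rose past the threshold. It was at 12.55, 13.65 and 12.05 TPM in untreated and 35.7, 26.6 and 30.2 TPM in CNO brains, with every CNO library above every untreated library. Its log2 difference was 1.20 ± 0.13 (SE, adjusted p = 0.0042, limma), higher in 3 of 3 CNO libraries. Over all genes 3.70% passed in either direction. Aqp1 was at 0.78, 0.61 and 0.62 TPM against 1.95, 1.11 and 2.47 TPM, with a log2 difference of 0.74 ± 0.22 (SE, adjusted p = 0.144, limma). All 3 untreated values were under 1 TPM, so Aqp1 passed the filter only through its CNO libraries. That its groups did not overlap was therefore fixed by the filter and is no result. Over all tested genes 15.6% had every CNO library above every untreated one, a share that can include other genes of this kind. Folr1 was at 4.01, 0.51 and 1.70 TPM in untreated and 9.72, 3.52 and 8.01 TPM in CNO brains, with CNO library 2 inside the untreated range. Its log2 difference of 1.47 ± 0.47 missed the threshold in the unpaired fit (SE, adjusted p = 0.165, limma) and passed it with the replicate number as a block (adjusted p = 0.0086), which brings the count to 2 of 9. With the block 928 of all 15453 tested genes passed, against 571 without it.

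The lowest of the 6 libraries was CNO library 2 for 5 of the 10 genes and untreated library 2 for 4. Ttr was at 660 and 686 TPM in CNO libraries 1 and 3 but at 0.99 TPM in CNO library 2, and at 187, 38.9 and 217 TPM in the untreated brains. Otx2 was at 7.88 and 8.0 TPM in CNO libraries 1 and 3 and at 0.82 TPM in CNO library 2, against 10.9, 3.72 and 9.44 TPM in the untreated brains. Clic6 followed Ttr, at 5.23 and 5.04 TPM against 0.17 TPM in CNO library 2, with 1.81, 0.40 and 1.58 TPM in untreated brains. Other members kept a clear level in that library: Enpp2 was at 96.2 TPM, Rarres2 at 26.6 TPM and Kl at 4.45 TPM. Untreated library 2 had the lowest Ttr, Otx2 and Clic6 of its own group.

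Over all libraries the log2 difference of Ttr between CNO and untreated brain was −0.29 ± 2.10, and that of Otx2 −0.67 ± 0.64 (SE, limma), neither past the threshold. Without both libraries numbered 2, an alternative added after the values were seen, Ttr was higher by 1.73 (adjusted p = 0.0117, limma, 2 libraries against 2), Rarres2 by 1.35 (adjusted p = 0.0300) and Otx2 was at −0.32. Without CNO library 2 alone, Ttr was at 2.52 (adjusted p = 0.164). Of the 42 symbols listed for other choroid plexus genes 28 were tested, 17 of them above 0 with a median of 0.18. Sulf1 (1.70 ± 0.22) and Igfbp2 (0.60 ± 0.12, SE) rose past limma's threshold. Markers of ependyma, the ciliated lining of the ventricles, were above 0 in 11 of 11 tested with 2 past the threshold, Cfap126 (1.29 ± 0.23) and Dynlrb2 (1.38 ± 0.28, SE, limma), and summed to 21.7 to 26.0 TPM in untreated and 45.2 to 60.5 TPM in CNO brains. All 12 microglial markers rose, with a median of 1.36, and 10 astrocyte markers summed to 1402 to 1674 TPM in untreated and 3745 to 4062 TPM in CNO brains. Striatal markers summed to 122 to 149 TPM in untreated and 196 to 287 TPM in CNO brains, with 2 of 8 risen, and leptomeningeal markers to 168 to 215 TPM and 102 to 146 TPM, with 2 of 11 fallen. The part of these cells in the rise of Rarres2 was not tested.

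In the second KA cohort 0 of 10 genes passed edgeR's test in any of the 3 comparisons, and libraries of a group could lie far apart. The highest Ttr level was 100-fold the lowest among the KA brains and 32.0-fold among the knockdown brains, against 4.61-fold in untreated and 2.11-fold in Apoe knockout brains. Ttr was at 592, 1905 and 413 TPM in untreated brains, at 2037, 141, 324 and 20.3 TPM in KA brains, at 577, 1219 and 1043 TPM in Apoe knockout brains with KA, and at 39.4, 628 and 19.6 TPM in A2aR knockdown brains with KA. The 4 KA libraries alone spanned nearly the whole range, which ran 104-fold over the 13 libraries. Clic6 was at 5.14, 10.01 and 3.96 TPM in untreated brains, 6.11, 1.01, 1.97 and 0 TPM in KA brains, 5.22, 8.61 and 8.16 TPM in Apoe knockout and 0.51, 4.09 and 0.23 TPM in knockdown brains. KA library 4 had 0 counts of Clic6 among 74445917, which allows up to 3 counts (counting error only), where KA library 1 had 687.

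Otx2 was not low in every library that was low in Ttr. It was at 2.49, 11 and 6.25 TPM in untreated, 10.2, 5.10, 7.07 and 0.13 TPM in KA, 9.97, 8.52 and 8.0 TPM in Apoe knockout and 7.98, 4.88 and 3.23 TPM in knockdown brains. Knockdown library 4 had 7.98 TPM of Otx2 beside 39.4 TPM of Ttr, while KA library 4 was low in both. Folr1 was at 2.35, 11.4 and 4.01 TPM in untreated, 7.88, 0.62, 1.40 and 0.80 TPM in KA, 3.90, 8.86 and 3.10 TPM in Apoe knockout and 1.22, 5.57 and 0.08 TPM in knockdown brains. Of the other transport genes, Aqp1 ran from 0.29 to 4.44 TPM and Slc4a5 from 0.02 to 2.69 TPM over the 13 libraries. The secreted and signalling genes had the narrower ranges: Enpp2 ran from 122 to 284 TPM, Kl from 6.68 to 19.98 TPM, Sostdc1 from 1.71 to 10.6 TPM and Rarres2 from 8.34 to 29.3 TPM. Untreated library 2 was the highest of 13 for 6 genes, and KA libraries 2 and 4 and knockdown library 6 were each the lowest for 3.

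**Figure D2:**
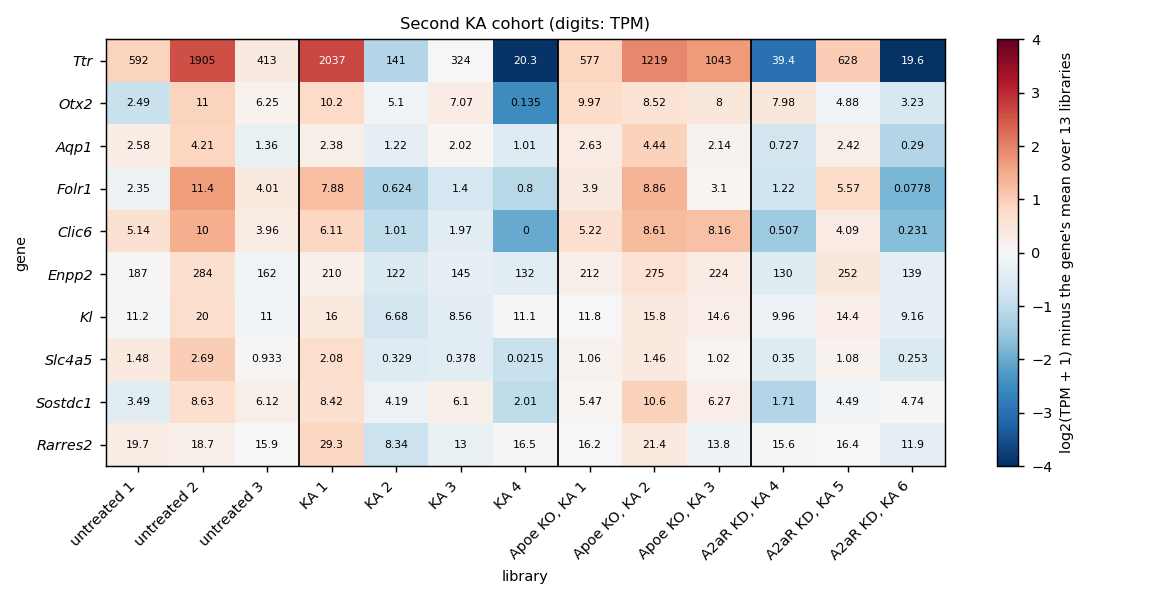
Each of the 10 genes (rows) in each of the 13 libraries of the second KA cohort (columns, lines between groups); digits are TPM and colour is log2(TPM + 1) minus the gene's mean over the libraries, with colours saturating at 4. KA library 1 (Ttr 2037 TPM) and KA library 4 (Ttr 20.3 TPM) belong to the same group.

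Between KA and untreated brain of this cohort all 10 fitted log2 differences were below 0, with a median of −0.54, against 0.00 over 23318 genes, and 0 of 10 had an unadjusted p under 0.05, against 6.72% of all genes. Over all genes 0.0558% passed edgeR's test in either direction. The differences ran from −0.02 ± 0.30 for Rarres2 to −1.58 ± 1.14 for Clic6 (SE), and that of Ttr was −0.60 ± 1.25 (SE, adjusted p = 0.989, edgeR). The groups overlapped for all 10 genes, and 7.62% of all genes did not overlap in either direction. Without untreated library 2 the median was −0.09 and Ttr was at 0.33, while without KA library 1 the median was −0.87 and Ttr at −2.55. Microglial markers summed to 527 to 614 TPM in untreated and 677 to 1157 TPM in KA brains, with 12 of 12 above 0 and 0 past the threshold, and their part was not tested. Of 41 tested other choroid plexus genes, 10 were above 0, with a median of −0.37 and 0 past the threshold. The fitted direction was thus opposite to that in the first KA cohort for each of the 10 genes. In the second cohort the signs of Ttr, Otx2, Sostdc1 and Rarres2 turned when certain single libraries were left out. The difference between the cohorts was not tested, since the tables were processed separately, and sex and KA cannot be told apart in the second.

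Apoe knockout brains with KA were compared with KA brains for the part of apolipoprotein E, the lipid carrier made by astrocytes. All 10 log2 differences were above 0, with a median of 0.69 against −0.01 over all genes, and 0 passed, against 0.112% of all genes. Enpp2 alone had an unadjusted p under 0.05, against 9.33% of all genes. Enpp2 was the 1 gene whose groups did not overlap, with 212, 275 and 224 TPM in knockout and 210, 122, 145 and 132 TPM in KA brains, which held for 4.82% of all genes. Its log2 difference was 0.65 ± 0.26 (SE, adjusted p = 0.463, edgeR), and that of Clic6, the largest of the 10, was 1.79 ± 1.15. Without KA library 1 Clic6 was at 3.02, Ttr moved from 0.61 to 2.56, Slc4a5 from 0.76 to 2.28 and Folr1 from 0.77 to 2.13, and the median was 1.15. Of 41 other choroid plexus genes, 36 were above 0 with a median of 0.56 and 0 past the threshold, the smallest p being those of Igfbp2 (0.86 ± 0.19) and Col8a1 (1.92 ± 0.50, SE). Markers of leptomeningeal fibroblasts, the cells of the pia and of the stroma of the plexus, moved with them: 12 of 12 were above 0 with a median of 1.00 and 0 past the threshold, and summed to 57.8 to 95.5 TPM in KA and 115 to 141 TPM in knockout brains. The 12 microglial markers were all below 0, with a median of −0.36, and summed to 629 to 671 TPM in knockout brains. Their part in the differences was not tested. All 3 comparisons of this cohort share the 4 KA libraries.

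In A2aR knockdown brains with KA against KA brains, 3 of 10 log2 differences were above 0, with a median of −0.25, and 0 passed, against 0.0386% of all genes. An unadjusted p under 0.05 was had by 0 of 10, against 9.25% of all genes. The groups overlapped for all 10, and 9.05% of all genes did not overlap in either direction. Ttr was at −1.41 ± 1.31 and Otx2 at 0.35 ± 0.76 (SE, edgeR). Single libraries moved these values in both directions. Without KA library 1 Ttr was at 0.54, Slc4a5 at 1.27, Clic6 at 0.98 and the median at 0.50, with 8 of 10 above 0. Without knockdown library 5 Ttr was at −4.33, Clic6 at −2.32 and the median at −0.83, with 1 of 10 above 0, and without KA library 4 Otx2 was at −0.054. Thalamic and habenular markers were below 0 in 8 of 8, summing to 83.8 to 134 TPM in knockdown and 91.6 to 366 TPM in KA brains, and their part was not tested.

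**Figure D3:**
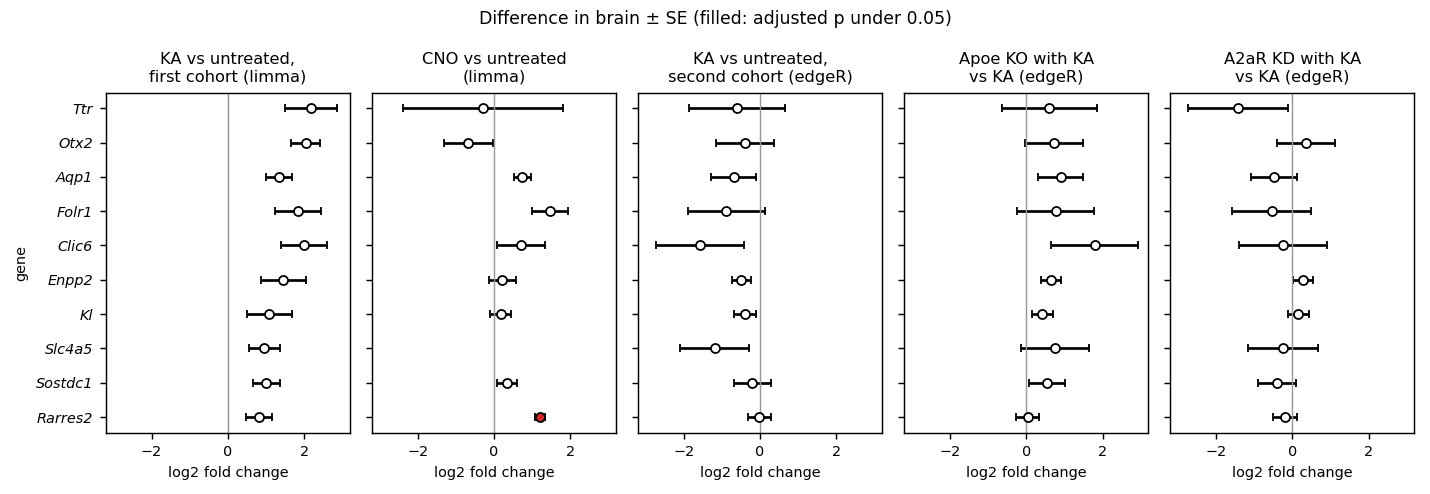
Log2 difference ± SE of each gene in the 5 brain comparisons, from limma on log2(TPM + 1) or edgeR on counts; a filled point has an adjusted p under 0.05. In these fits without a replicate block, Rarres2 in CNO brain, at 1.20, is the 1 filled point. All 10 genes lie above 0 in the first KA cohort, and all 10 lie below 0 in the second.

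Within the second KA cohort the genes went up and down together from library to library. Over the 13 libraries log2(TPM + 1) of Clic6 followed that of Ttr with Pearson's r = 0.969 and Spearman's rho = 0.940 (permutation p adjusted over 9 genes 4.5e-05 and 9e-05). Slc4a5 (r = 0.900, rho = 0.929), Aqp1 (0.888, 0.830), Folr1 (0.883, 0.901), Enpp2 (0.83, 0.846) and Sostdc1 (0.779, 0.736) followed in this order, and Kl stood at 0.683 and 0.879. For Rarres2 r was 0.53 and rho 0.676 (permutation p adjusted over 9 genes 0.0658 and 0.0139). For Otx2 r was 0.659 and rho 0.681 (permutation p adjusted over 9 genes 0.0127 and 0.0139). Its r fell to 0.278 without the 2 libraries farthest from the median of Ttr, knockdown library 6 and KA library 4. The size of r thus depended on them, and rho was not computed without them. Without those 2 the other 8 had r from 0.605 for Rarres2 to 0.944 for Clic6. Taken as deviations from the group means, r was 0.995 for Clic6, 0.907 for Slc4a5 and 0.685 for Otx2. All libraries share a depth and a dissection of their own, and the genes were chosen as markers of 1 tissue.

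**Figure D4:**
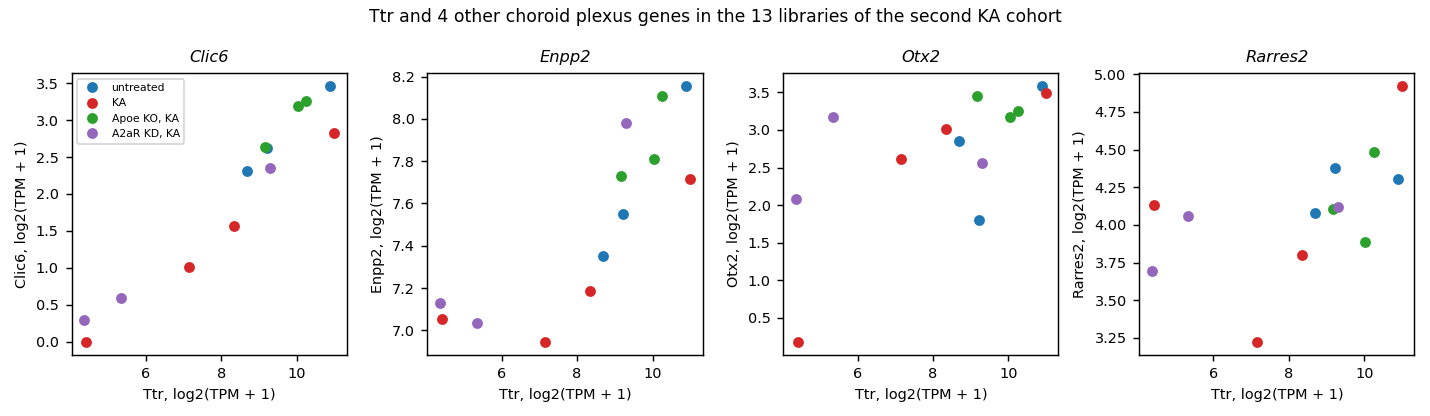
Ttr (horizontal axis) against Clic6, Enpp2, Otx2 and Rarres2 (vertical axes), as log2(TPM + 1), in the 13 libraries of the second KA cohort, coloured by group. Clic6 rises with Ttr through all groups (r = 0.969), while Otx2 (r = 0.659) and Rarres2 (r = 0.53) scatter.

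In each of the 3 brain tables, every gene was also correlated with the mean of the other members. Clic6 had r of 0.995, 0.990 and 0.943 in the first KA cohort (6 libraries), the CNO set (6) and the second KA cohort (13), and Enpp2 0.946, 0.879 and 0.912. Rarres2 had 0.343, 0.474 and 0.609, the lowest in the first KA cohort and the CNO set, and Otx2 had 0.931, 0.548 and 0.576, the lowest in the second KA cohort. The order of the genes differed between tables: Folr1 (0.954) was highest in the second KA cohort, and Sostdc1 went from 0.983 in the first to 0.742 in the second. Among 14522 genes that passed the filter in all 3 tables, the 12 whose pattern was most like the mean of the members, ranked by the lowest of the 3 correlations, were Ecrg4 (0.949), Kcnj13 (0.922), Mfrp (0.908), 2900040C04Rik (0.902), Calml4 (0.900), Cab39l (0.859), Ace (0.811), Pcolce (0.796), Slc2a12 (0.790), Drc7 (0.775), Slc31a1 (0.755) and Lbp (0.743). Of these, 10 are on the list of 42 symbols for other choroid plexus genes, of which 28 could be ranked. Pcolce, an enhancer of procollagen processing, and Drc7, a component of the regulatory complex of motile cilia, are not. That list was chosen with earlier results of these data known, so the overlap is not independent of them. Kcnj13, a potassium channel of the plexus, was at 5.33 and 4.58 TPM in CNO libraries 1 and 3 and at 0.17 TPM in CNO library 2, the library that was low in Ttr. These correlations describe the libraries and carry no test.

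Cultured astrocytes held 7 of the 10 genes above the filter. Clic6 was at 0.02 to 0.72 TPM over the 27 libraries, Kl at 0 to 0.09 TPM and Slc4a5 at 0 to 0.31 TPM, and these 3 were not tested. The cultures carried the defining genes of astrocytes, summing over 10 markers to 2325 to 2590 TPM in untreated wild-type cells and 552 to 568 TPM in untreated knockout cells. They also held ependymal markers, summing to 278 to 332 TPM and 153 to 163 TPM, among them Foxj1, the master factor of motile cilia, at 147 ± 13.4 TPM in untreated wild-type cells (SD, n = 3). Of the defining plexus channels Kcnj13 was at 2.94 ± 0.42 TPM in these cells and was listed at 0 in all 3 wild-type palmitic acid libraries, while Kcne2 was at 0.07 ± 0.03 TPM and Prlr, the prolactin receptor, at 0.01 ± 0.02 TPM (SD, n = 3). The whole list of other choroid plexus genes summed to 14411 to 14931 TPM in untreated wild-type and 5617 to 6086 TPM in untreated knockout cells. In the brain libraries it summed to 1033 to 2218 TPM. The 10 members went the other way, with sums of 107 to 133 TPM in untreated wild-type cells and 136 to 2781 TPM in brain. Such a sum is carried by the most abundant genes of a list and is no measure of plexus cells. The sex-linked genes differed between groups as well. Xist was at 30.7 to 47.4 TPM and Ddx3y at 12.6 to 19.1 TPM in wild-type cells, untreated or given either medium, but at 6.57 to 15.0 and 0.52 to 1.35 TPM after oleic acid and at 15.5 to 21.0 and 3.22 to 4.49 TPM after palmitic acid. In untreated knockout cells they were at 2.79 to 3.81 and 31.3 to 33.5 TPM. The treated knockout groups differed from these too. Xist was at 7.12 to 8.55 TPM with neuronal medium, 2.12 to 2.72 TPM with oleic acid and 0 to 0.05 TPM with palmitic acid. Ddx3y was at 22.9 to 31.0, 14.3 to 15.2 and 1.86 to 15.7 TPM in the same order. The part of other cell types and of the sex of the cultured cells in the values that follow was not tested.

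Apoe knockout astrocytes, untreated, had less of 6 of the 7 tested genes than wild-type ones and more of 1. The 6 compare with 21.1% of all genes that fell, and the 1 that rose, Enpp2, with 23.9%. Ttr was at 5.55, 7.74 and 6.51 TPM in wild-type and 0.75, 0.46 and 0.30 TPM in knockout cells, a log2 difference of −2.34 ± 0.26 (SE, adjusted p = 1.44e-07, limma). Folr1 was at 21.5, 30.5 and 29.3 TPM against 4.88, 4.69 and 4.32 TPM, a difference of −2.31 ± 0.19 (SE, adjusted p = 1.69e-09). Sostdc1 fell by 2.01 ± 0.12, Rarres2 by 1.90 ± 0.11, Aqp1 by 1.80 ± 0.12 and Otx2 by 0.67 ± 0.11 on the log2 scale, all without overlap. Enpp2 rose by 0.95 ± 0.20 (SE, adjusted p = 0.0006, limma), from 5.04, 3.99 and 4.48 TPM to 10.8, 8.67 and 9.5 TPM. The 9 tested astrocyte markers all fell, with a median of −1.58, and of 32 other choroid plexus genes 20 fell and 5 rose, with Ecrg4 at −1.43 ± 0.04 and the channel Trpv4 at 1.99 ± 0.11 (SE). Of 11 ependymal markers 9 fell and 1 rose, and of 9 leptomeningeal markers 6 fell and 3 rose. The part of these cell types in the fall of the 6 genes was not tested.

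Medium of neurons changed none of the 7 genes in wild-type astrocytes past limma's threshold, against 0.0371% of all genes, and 1 of 7, Aqp1, had an unadjusted p under 0.05, against 6.38% of all genes. Ttr was at 6.51, 13.53 and 8.60 TPM in these cells, overlapping the untreated ones, and its log2 difference was 0.43 ± 0.26 (SE, adjusted p = 0.881). In knockout astrocytes the same medium raised 6 of 7, against 18.7% of all genes. Ttr was at 7.48, 6.56 and 7.48 TPM after medium, 2.45 ± 0.26 above untreated knockout cells on the log2 scale (SE, adjusted p = 1.6e-07, limma), and Folr1 at 29.9, 19.9 and 31.1 TPM, 2.29 ± 0.19 above them. Both levels overlapped those of untreated wild-type cells. Sostdc1 rose by 1.18 ± 0.12 to 6.30 ± 0.03 TPM (SD, n = 3), without reaching the 11.5 to 12.3 TPM of untreated wild-type cells. Otx2 rose by 0.88 ± 0.11, Rarres2 by 0.79 ± 0.11 and Enpp2 by 0.61 ± 0.20, and Aqp1 was at 0.17 ± 0.12 (SE, adjusted p = 0.325). The call of Enpp2 was lost when any of 4 libraries was left out, with adjusted p up to 0.0933. The change with medium differed between genotypes for 6 of 7 genes, all but Enpp2, against 18.5% of all genes, by 2.21 ± 0.27 for Folr1 and 2.02 ± 0.37 for Ttr (SE, limma interaction term, adjusted p = 3.54e-06 and 0.0004). That of Aqp1, 0.52 ± 0.17, was lost on leaving out any of 8 libraries (adjusted p up to 0.108), with a pseudocount of 0.1 TPM (0.145) and with no filter (0.0751). The 9 astrocyte markers and 10 of 11 ependymal markers rose with medium in knockout cells as well, and the summed level of the first was 1342 to 1448 TPM after medium. Their part was not tested.

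Medium of Apoe knockout neurons was set against medium of normal neurons on wild-type astrocytes. Rarres2 fell, from 47.9, 49.5 and 44.2 TPM to 33.1, 29.6 and 36.6 TPM, a log2 difference of −0.50 ± 0.11 (SE, adjusted p = 0.025, limma), 1 of 7 against 0.452% of all genes that fell. The call was lost on leaving out library 1 or 2 of either group, with adjusted p from 0.0859 to 0.131. Over all genes 156 rose and 73 fell, and 100 and 83 with median-ratio scaling. The other 6 genes did not pass.

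Oleic acid lowered 6 of the 7 genes in wild-type astrocytes, against 28.6% of all genes that fell, and raised Enpp2, against 31.2% that rose. Median-ratio scaling moved the count of all genes from 5050 up and 4619 down to 3984 up and 5668 down, with the same counts for the 7 genes. Ttr was at 0.06, 0 and 0.28 TPM after oleic acid, −2.77 ± 0.26 from untreated, and Aqp1 at 0.42, 0.22 and 0.59 TPM, −2.65 ± 0.12 (SE, adjusted p = 1.11e-08 and 1.38e-13, limma). Aqp1 had been at 7.37, 8.64 and 7.42 TPM in untreated cells, so that no library overlapped. Folr1 fell by 1.40 ± 0.19, Sostdc1 by 0.67 ± 0.12, Otx2 by 0.41 ± 0.11 and Rarres2 by 0.34 ± 0.11, the last not past the threshold without oleic acid library 3 or untreated library 2 (adjusted p = 0.0654 and 0.0995). Enpp2 rose by 0.87 ± 0.20 to 9.90, 7.61 and 9.74 TPM (SE). In knockout astrocytes oleic acid raised 4 of 7 instead, against 21.7% of all genes that rose: Ttr by 1.53 ± 0.26 to 2.18, 2.22 and 6.89 TPM, Enpp2 by 0.89 ± 0.20, Rarres2 by 0.83 ± 0.11 and Folr1 by 0.75 ± 0.19 (SE). Enpp2, at 32.4, 13.6 and 14.5 TPM, rose by 0.50 without oleic acid library 1. Aqp1, Otx2 and Sostdc1 did not pass there. The change differed between genotypes for 5 of 7 genes, against 29.6% of all genes, by 4.30 ± 0.37 for Ttr and 2.89 ± 0.17 for Aqp1 (SE, limma interaction term, adjusted p = 8.82e-09 and 2.75e-11). Untreated knockout cells held only 0.50 TPM of Ttr and 1.53 TPM of Aqp1, too little to fall as far as wild-type cells did on log2(TPM + 1). The positive sign of these 2 terms was therefore fixed by the starting levels. The term of Sostdc1, 0.52 ± 0.17, was lost on leaving out library 1 of any of the 4 groups (adjusted p up to 0.0571) and with a pseudocount of 0.1 TPM (0.175). In wild-type cells 7 of 9 astrocyte markers fell with oleic acid as well, with a median of −0.85, and so did 8 of 9 leptomeningeal markers, which summed to 1330 to 1411 TPM in untreated and 278 to 288 TPM in treated cells. Microglial markers summed to 508 to 558 TPM in untreated and 939 to 1052 TPM in oleic acid wild-type cells, and to 427 to 459 and 1183 to 1280 TPM in knockout cells, where 10 of 12 rose. Their part was not tested.

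Palmitic acid lowered 4 of the 7 genes in wild-type astrocytes, against 33.1% of all genes that fell. These were Ttr, at 0.13, 0 and 0.39 TPM (−2.70 ± 0.26), Sostdc1, at 1.67, 1.82 and 0.79 TPM (−2.44 ± 0.12), Folr1, at 5.73, 5.99 and 6.15 TPM (−2.0 ± 0.19), and Aqp1, at 1.63, 2.48 and 2.13 TPM (−1.52 ± 0.12; SE, limma). Otx2, Enpp2 and Rarres2 did not pass, and Rarres2, at 51.9, 42.3 and 45.9 TPM, overlapped untreated cells. All 9 astrocyte, 10 of 11 ependymal and 8 of 9 leptomeningeal markers fell too, 8 of 12 microglial markers rose, and their part was not tested. In knockout astrocytes palmitic acid lowered 5 of 7, against 55.4% of all genes that fell, and raised Aqp1, against 19.9% that rose. These libraries had the fewest genes at 1 TPM or more, 12057 to 12915, their 10 astrocyte markers summed to only 63.5 to 86.5 TPM, all 12 microglial markers fell, and the median of all genes was −0.47, or −0.24 with median-ratio scaling, which moved the count of all genes from 3222 up and 8946 down to 4771 up and 7322 down. Sostdc1 was at 0.03, 0 and 0.03 TPM (−1.66 ± 0.12), Enpp2 at 2.0, 2.80 and 2.32 TPM (−1.66 ± 0.20), Rarres2 at 3.75, 3.23 and 3.29 TPM (−1.61 ± 0.11) and Folr1 at 1.48, 1.5 and 0.70 TPM (−1.36 ± 0.19). Otx2 fell by 0.79 ± 0.11. Aqp1 went the other way, from 1.38, 1.64 and 1.58 TPM to 4.89, 4.82 and 4.25 TPM, 1.16 ± 0.12 (SE, adjusted p = 2.4e-08, limma). Ttr, at 0, 0.06 and 0 TPM, was at −0.55 ± 0.26 (adjusted p = 0.0612), and at −2.30 with a pseudocount of 0.1 TPM (adjusted p = 0.0004). The change differed between genotypes for all 7 tested genes, against 57.6% of all genes. Untreated knockout cells held only 0.50 TPM of Ttr, 1.53 TPM of Aqp1 and 2.22 TPM of Sostdc1. On log2(TPM + 1) these genes could not fall as far there as in wild-type cells. The positive sign of their terms was therefore fixed by the starting levels. The change differed most for Aqp1, by 2.68 ± 0.17, and with the opposite sign for Enpp2, by −1.84 ± 0.29, and Rarres2, by −1.53 ± 0.16 (SE, limma interaction term). For Folr1, at 0.64 ± 0.27, the call was lost on leaving out any of 10 libraries (adjusted p up to 0.115), with the replicate block (0.0577), with no filter (0.0922) and with a pseudocount of 0.1 TPM (difference 0.25, adjusted p = 0.54). It was lost for Otx2 with median-ratio scaling (−0.31, adjusted p = 0.125), and Sostdc1 turned from 0.78 to −1.22 with a pseudocount of 0.1 TPM.

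**Figure D5:**
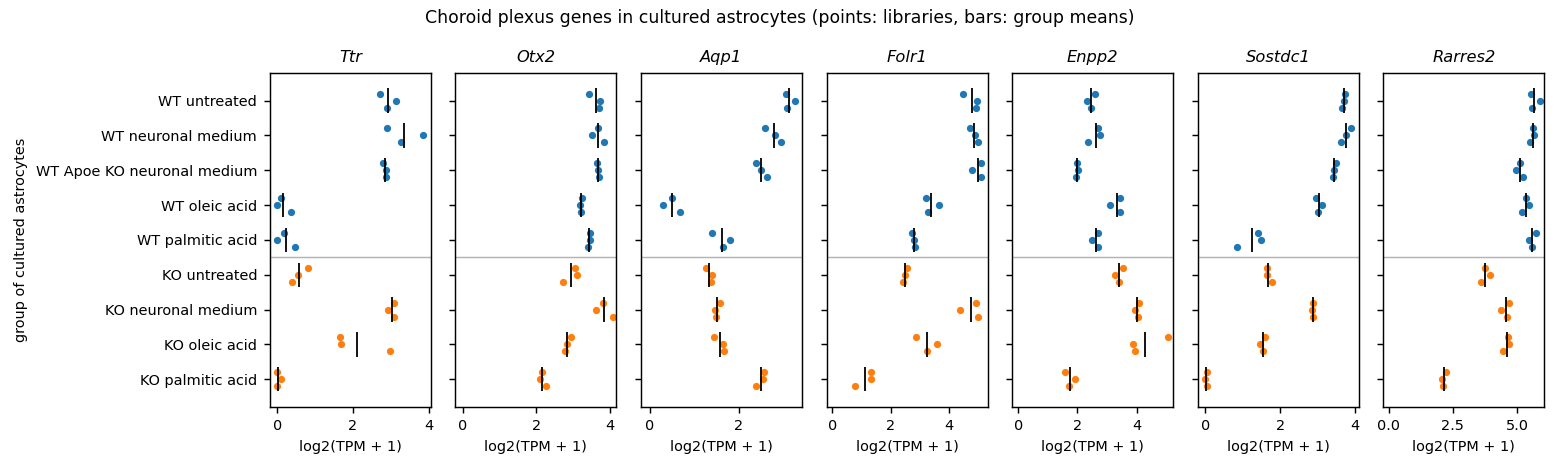
Level of the 7 genes above the filter, as log2(TPM + 1), in 9 groups of cultured astrocytes (blue wild-type, orange Apoe knockout, points are libraries, bars are group means). Ttr and Folr1 in knockout cells given neuronal medium reach the levels of untreated wild-type cells, and Aqp1 in knockout cells is highest after palmitic acid, at 4.25 to 4.89 TPM.

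Set in order over the 9 groups, mean Ttr was 9.55 ± 3.6 TPM in wild-type cells with neuronal medium, 7.17 ± 0.53 in knockout cells with it, 6.60 ± 1.10 in untreated wild-type cells and 6.19 ± 0.25 in wild-type cells with medium of knockout neurons, each overlapping the next in this order. The last lay wholly below both groups given medium of normal neurons. Knockout cells with oleic acid followed at 3.76 ± 2.71 TPM, overlapping only through library 3, then untreated knockout cells at 0.50 ± 0.23 TPM. The lowest were palmitic and oleic acid on wild-type cells, at 0.17 ± 0.20 and 0.11 ± 0.15 TPM, and palmitic acid on knockout cells, at 0.02 ± 0.03 TPM (SD, n = 3 in each). Otx2 spanned less, from 3.48 ± 0.26 TPM in knockout cells with palmitic acid to 13.3 ± 2.31 TPM in knockout cells with neuronal medium (SD, n = 3).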

How the data were processed

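Brain RNA was extracted with Trizol and 1 ug of it went into each TruSeq library, per the labels' protocols. HISAT2, StringTie, RSEM and mm10 are named without roles, per the submitters' processing notes. The authors deposited TPM values per gene for all 4 tables (read as TPM from totals of 978422 to 999897 per library) and, for the second KA cohort, counts per gene. Tables were tested separately. TPM values were tested as log2(TPM + 1) with limma 3.58.1 in R 4.3.3 (mean-variance trend; a gene needed 1 TPM in 3 or more libraries), so fold changes of low genes are understated; for counts, TMM factors, filterByExpr and the quasi-likelihood test of edgeR 4.0.16 were used. All groups of a table entered its fit. Benjamini-Hochberg adjustment ran over all genes of a comparison, with 0.05 as threshold. The members, the marker lists, the rule for named genes (the members, Apoe and Adora2a, the 12 genes most like the members, up to 4 per marker list by p) and the tests were chosen with earlier results of these data known. The interaction terms and the GGGCGG and TATAAA searches were added after the values were seen. Correlations used 100000 permutations. Replicate numbers paired the libraries only in the CNO set, where same-numbered libraries deviated together (correlations of 0.119 to 0.244). No 2 columns were identical, and counts of libraries of a group differed beyond sampling noise (chi-square per degree of freedom 53.2 to 100.6). Alternatives were scaling by median ratios (for counts, size factors of DESeq2 1.42.0), a pseudocount of 0.1 TPM, no filter, a replicate block, fewer groups, the DESeq2 test, and each library left out. The procedures were tested on simulated data.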

Additional observations from a re-analysis of the deposited data

Results flagged for a closer look

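In the 4 KA brains of the second cohort, the only group large enough for Dixon's test of a single far library, KA library 1 lay far above the others for Ttr, at 2037.18 TPM, and for Folr1, at 7.88 TPM. These were 2 of 10 genes tested, where chance flags about 5% of such groups if values are normally distributed, and all 10 share the library. The test was run on TPM, while the fits used log2(TPM + 1) or counts. Ttr ran 100-fold within this group, down to 20.3 TPM in KA library 4, and the test was not run on a log scale. The flags therefore hold for TPM only.

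The response of astrocytes differed between Apoe knockout and wild-type cells, by limma's interaction term, for 18 combinations of gene and treatment. With neuronal medium the difference (knockout minus wild-type, log2) was 2.02 for Ttr, 2.21 for Folr1, 1.12 for Sostdc1, 0.85 for Rarres2, 0.82 for Otx2 and 0.52 for Aqp1. With oleic acid it was 4.30 for Ttr, 2.89 for Aqp1, 2.15 for Folr1, 1.17 for Rarres2 and 0.52 for Sostdc1. With palmitic acid it was 2.68 for Aqp1, 2.15 for Ttr, 0.78 for Sostdc1, 0.64 for Folr1, −0.60 for Otx2, −1.53 for Rarres2 and −1.84 for Enpp2. Ttr starts from 0.50 ± 0.23 TPM in untreated knockout cells and 6.60 ± 1.10 TPM in wild-type cells (SD, n = 3). Aqp1 starts from 1.53 and 7.81 TPM, and Sostdc1 from 2.22 and 11.9 TPM. From such starts the wild-type falls could not occur in knockout cells on log2(TPM + 1). This holds for Ttr and Aqp1 with either fatty acid and for Sostdc1 with palmitic acid. The positive sign of these terms was therefore fixed by the starting levels.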

How the results depend on the processing

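The number of the 10 genes called stayed within 1.5 times under the alternatives run except these. In the first KA cohort it ran from 0 to 1 with each library left out (1 without untreated library 3). In CNO brain it was 2 with the replicate block and 2 without both libraries of number 2, where Ttr turned to 1.73. For medium of Apoe knockout neurons it ran from 0 to 1. Apart from libraries left out, the replicate block turned Otx2 (0.17) and Sostdc1 (0.092) in the second KA cohort, median-ratio scaling turned Otx2 (−0.0091) with medium of Apoe knockout neurons, and a pseudocount of 0.1 TPM turned the interaction terms of Enpp2 with oleic acid (−0.050) and of Sostdc1 with palmitic acid (−1.22). The block changed no other call of a gene named here except that Folr1 lost its palmitic acid interaction (0.64, adjusted p = 0.0577). No paired analysis was possible for A2aR knockdown against KA brains, which share only replicate number 4. In the other comparisons outside the CNO set libraries share only a number, and the block there rests on that number. With each library left out, signs of uncalled genes turned within these ranges of log2 difference. In CNO brain they were −1.70 to 2.52 for Ttr, −1.08 to 0.10 for Otx2, −0.071 to 0.60 for Enpp2 and −0.0025 to 0.52 for Kl. For KA in the second cohort they were −2.55 to 0.33 for Ttr, −0.84 to 0.19 for Otx2, −0.54 to 0.13 for Sostdc1 and −0.36 to 0.18 for Rarres2, and for Apoe knockout −0.19 to 0.38 for Rarres2. For A2aR knockdown they were −4.33 to 0.54 for Ttr, −2.37 to 0.82 for Folr1, −2.32 to 0.98 for Clic6, −1.11 to 1.27 for Slc4a5, −0.39 to 0.15 for Rarres2, −0.078 to 0.46 for Enpp2, −0.045 to 0.43 for Kl and −0.054 to 0.81 for Otx2. In wild-type astrocytes they were, with neuronal medium, −0.071 to 0.17 for Folr1, −0.040 to 0.13 for Otx2, −0.13 to 0.039 for Rarres2 and −0.0043 to 0.14 for Sostdc1, with knockout medium −0.073 to 0.090 for Otx2, with palmitic acid −0.16 to 0.021 for Rarres2, and for Enpp2 in the oleic acid interaction −0.37 to 0.23. Of other single-gene values, 833 with a library left out and 593 with another setting kept sign and side. Genes called over the whole table changed more: 28 became 44 (pseudocount 0.1 TPM), 2 (no filter) and 2 (replicate block) in the first KA cohort and ran from 0 to 352 with a library left out; 571 became 197 (no filter) and 928 (block) for CNO and ran from 167 to 591; 13, 26 and 9 became 153, 327 and 246 with DESeq2 for KA, Apoe knockout and A2aR knockdown, 2 and 0 with the block for the first 2, and 11 and 1 with only the groups compared for the last 2. In neuronal medium on wild-type cells 6 became 3, 30 (no filter) and 1, and 229 with medium of Apoe knockout neurons became 128 (pseudocount 0.1 TPM). The cause of these changes was not tested. Several calls are of genes under 10 TPM, and the depth of the TPM tables is unknown.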
